A study of Mus musculus with 20 samples.

Results

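CTCF regions that were present only in cells lacking thymine DNA glycosylase (TDG) and that lay between genes numbered 2679, out of 54729 CTCF regions in the series and 22759 CTCF regions between genes. They were chosen from the 4 deposited peak lists of CTCF chromatin immunoprecipitation with sequencing (ChIP-seq), 2 from wild-type (WT) and 2 from TDG KO mouse embryonic stem cells. Peaks of the lists that overlapped by at least 1 bp were merged into a region, and a region was kept when it held a peak in both TDG KO lists and in neither WT list. Its centre also had to lie outside every gene of the authors' expression table and more than 1 kb from each gene's start and end. Such regions are called KO-only regions between genes here. Because peak presence chose them, their presence in TDG KO, their peak scores and their peak widths are a description and were not tested.

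The series compared mouse embryonic stem cells of a 129 background that were WT or carried the Tdg knockout, and its title links 5-carboxylcytosine to CTCF binding at suboptimal sequences. Cells of both genotypes were kept in serum medium with LIF on growth-arrested embryonic fibroblasts, which were then depleted by plating, and had no other treatment. CTCF was precipitated with a single antibody in 2 libraries per genotype, and RNA was sequenced in 2 further libraries per genotype. Whether a genotype was more than 1 line, and whether replicates came from separate cultures, is not stated. A genotype difference is therefore also one between lines, and the spread behind each p-value may be technical.

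CTCF is a zinc finger protein that binds DNA through a long sequence motif, stops the cohesin ring as it extrudes chromatin loops, and so marks loop anchors and domain boundaries. Methylation of a cytosine inside its motif can hinder binding. TET enzymes oxidise 5-methylcytosine stepwise to 5-formylcytosine and 5-carboxylcytosine, and TDG cuts these out, so that cells without TDG accumulate them. Between genes, CTCF sites often lie at domain boundaries and beside enhancers.

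A genome sequence was not used here, but 13 of the 2679 regions overlapped a promoter window of a RefSeq gene that the authors' gene table does not place there. These windows hold 250 bases before and 50 after a gene's start (RefSeq, GRCm38.p6, the same build as mm10), and 11 of the 13 belong to long noncoding RNA genes. The stretches are shown because they are the sequence at hand from the KO-only regions themselves. They were searched on both strands for a 12-letter form of the CTCF core with 8 fixed letters: CCA, any 2 bases, AG, any 2 bases, GGC. The full motif was found in 4 of the 13 windows, always inside the CTCF region, and those 4 stretches are printed on the plus strand with the match in capitals.
8430419K02Rik, chr11:18877553-18877729: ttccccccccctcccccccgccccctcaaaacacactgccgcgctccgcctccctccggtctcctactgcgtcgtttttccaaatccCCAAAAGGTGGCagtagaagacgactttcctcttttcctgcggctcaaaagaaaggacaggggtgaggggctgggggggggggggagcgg
Gm39362, chr9:65031363-65031538: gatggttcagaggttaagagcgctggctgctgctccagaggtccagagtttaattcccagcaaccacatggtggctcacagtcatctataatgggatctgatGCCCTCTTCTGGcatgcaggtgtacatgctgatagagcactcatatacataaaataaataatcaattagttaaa
Gm33299, chr14:121456992-121457141: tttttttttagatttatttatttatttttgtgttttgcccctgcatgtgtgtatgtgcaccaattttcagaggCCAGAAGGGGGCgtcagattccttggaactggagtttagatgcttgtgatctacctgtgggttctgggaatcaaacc
Gm46796, chr3:6106767-6106901: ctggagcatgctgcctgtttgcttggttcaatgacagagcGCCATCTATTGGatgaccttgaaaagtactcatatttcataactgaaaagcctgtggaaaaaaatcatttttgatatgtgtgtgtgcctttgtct
In Gm39362 and Gm46796 the match reads on the minus strand. Its middle lay 5 bp from the region's centre in the stretch at 8430419K02Rik, 29 bp at Gm39362, 49 bp at Gm33299 and 22 bp at Gm46796. A CG dinucleotide, the usual site of cytosine methylation in mammals, lay in or directly beside the match in 2 of the 4.

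A further stretch is given as a near match, with 7 of the 8 fixed letters and the match on the minus strand, from a region 21908 bp from Inhbb, a gene that is described below.
Gm33490, chr1:119444095-119444275: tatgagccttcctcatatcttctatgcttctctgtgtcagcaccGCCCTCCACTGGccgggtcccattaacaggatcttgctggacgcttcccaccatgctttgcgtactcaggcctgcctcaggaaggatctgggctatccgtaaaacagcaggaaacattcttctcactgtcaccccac
Of the other 8 windows, 2 had a best match of 7 letters inside the region, 5 of 6 letters and 1 of 5 letters. Among the 130 windows that overlapped a region between genes with a peak in all 4 lists, 31 (23.8%) held the full motif, each time inside the region. The share was 30.8% for the 13 KO-only windows and 2.43% of all 32815 RefSeq windows of the same 300-base length. The 13 stretches held between 1 and 10 CG dinucleotides. A motif match is a description of letters, and these 13 regions, all at annotated starts, need not resemble the other KO-only regions.

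Tdg RNA was lower in TDG KO, at 28.1 and 30.4 FPKM in WT replicates 1 and 2 and 5.50 and 4.74 FPKM in TDG KO replicates 1 and 2 (log2 change -2.31, SE 0.087, limma, adjusted p = 9.21e-06). The CTCF lists held 38303 and 37099 peaks in WT and 48514 and 48833 in TDG KO; read depth is unknown, and its part in the length of the lists was not tested. All 8 stem cell markers were expressed, with Pou5f1 between 996 and 1572 FPKM over the 4 libraries. Of 10 fibroblast markers, the feeder cells' genes, 7 were lower and 1 (Vim) higher in TDG KO; summed, the 10 were at 529 and 381 FPKM in WT and 441 and 495 FPKM in TDG KO, and without Vim at 281 and 177 FPKM in WT and 122 and 142 FPKM in TDG KO, and none was at 0 in all libraries. In bulk RNA fewer cells of a type and less RNA per cell cannot be told apart, and the part of fibroblasts in the results below was not tested. Over all 12035 tested genes, limma called 54% (adjusted p under 0.05): 24.4% went up in TDG KO and 29.5% went down, with a median log2 change of -0.04. Among 12 genes of CTCF and cohesin 9 fell and 1 rose (median -0.36), and among 8 tested genes of DNA methylation and its removal 4 fell and 3 rose (median -0.22). Ctcf itself was at 48.8 and 52.5 FPKM in WT and 42.4 and 41.1 FPKM in TDG KO (log2 change -0.27, limma, adjusted p = 0.0118), and Tet2 fell from 29.3 and 26.3 to 10.4 and 7.72 FPKM (log2 change -1.53, adjusted p = 0.0002). Dnmt3a, which sets new methylation, went from 12.3 and 12.9 to 35.5 and 36.3 FPKM (log2 change 1.44, adjusted p = 1.66e-05).

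Of the 22759 CTCF regions between genes, 11.8% met the peak rule, against 10.8% of all regions. Between genes, 13547 regions had a peak in all 4 lists and 32 had peaks in both WT lists only. A further 2336 had peaks in both TDG KO lists and 1 WT list, 2975 in a single TDG KO list and 627 in a single WT list. KO-only regions inside gene bodies numbered 2713 and those at gene ends 493. Dropping a list asks less of a region and gave more of them: 4277 when TDG KO replicate 1 was dropped, 4116 for TDG KO replicate 2, 3871 for WT replicate 1 and 3824 for WT replicate 2. With only the 37099 best-scored peaks of each list, which makes the lists equally long, 605 regions remained in the class.

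The KO-only regions between genes were mostly weak peaks of their own lists. By the authors' score, ranked within a list from 0 (weakest) to 100 (strongest), the median region stood at percentile 18.6 in TDG KO replicate 1 (quartiles 10.7 and 28.6, range 0.0062 to 84.4) and 18.8 in TDG KO replicate 2 (quartiles 10.7 and 27.8, range 0.0031 to 68.9). Below percentile 25 lay 67.2% of them in replicate 1 and 67.7% in replicate 2, and 18 of 2679 were above percentile 50 in both lists. Regions between genes in all 4 lists had medians of 66.5 and 66.6. The KO-only regions in gene bodies had medians of 17.7 and 16.9 and those at gene ends 17.6 and 17.9, close to those between genes. This is a description of values that the choice of regions bears on.

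**Figure D1:**
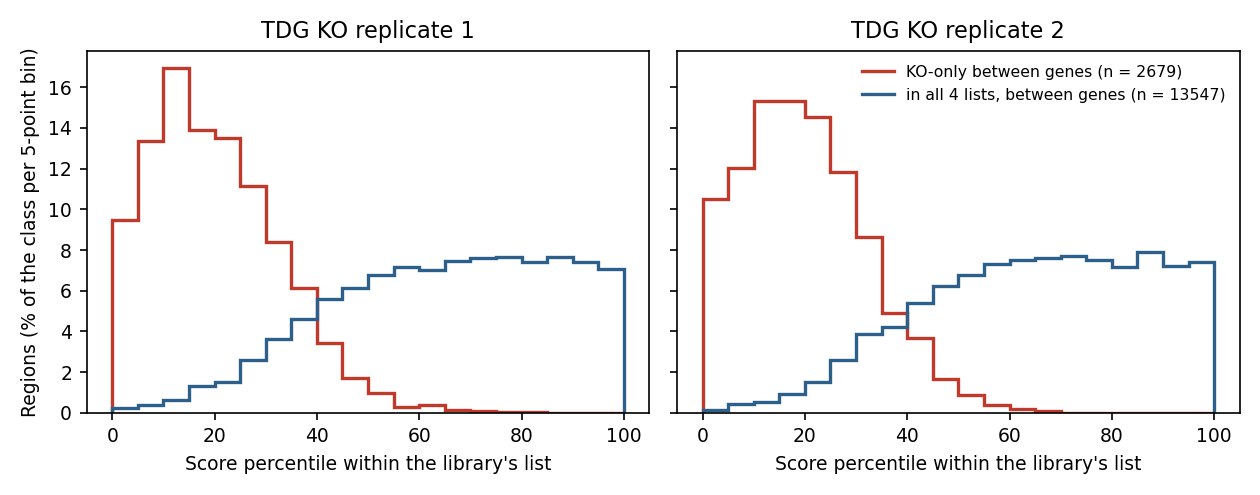
Score percentile within the library's own list (x) against the share of regions per 5-point bin (y) in each TDG KO library, for KO-only regions between genes (red) and regions between genes with a peak in all 4 lists (blue). The KO-only regions crowd at the low end, with medians of 18.6 and 18.8, and the other class spreads to the top, with medians of 66.5 and 66.6.

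In KO-only regions the peaks of the 2 TDG KO lists had to overlap, which bounds how far apart their centres can lie. Their offset is therefore a description. The centres of the peaks in replicates 1 and 2 were a median of 17.5 bp apart in KO-only regions between genes (quartiles 8 and 32 bp, highest 281 bp), and within 50 bp in 88.0% of them. Regions in all 4 lists had a median offset of 20.5 bp, and 80.1% were within 50 bp. Peaks of KO-only regions were narrower, with a median width of 212 bp in replicate 1 and 199 bp in replicate 2, against 333 and 315 bp for regions in all 4 lists, and wide peaks leave more room for an offset. Only 5 KO-only regions between genes held more than 1 peak of the same list.

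The best-ranked region was chr15:97125754-97126184, 70013 bp from Slc38a4, an imprinted amino acid transporter gene, at percentile 84.4 in TDG KO replicate 1 and 57.0 in replicate 2. Of the other 5 best-ranked regions, 4 lay on chromosome 11. These were chr11:48750447-48750865 (percentiles 78.4 and 57.9), 1211 bp from Gm12183, and chr11:90055573-90055958 (66.6 and 62.8), 19257 bp from Tmem100, a membrane protein gene of endothelial cells. They also included chr11:44593061-44593315 (71.7 and 56.2), 1959 bp from 4930597A21Rik, and chr11:68681329-68681715 (61.4 and 66.2), 10037 bp from Myh10, a non-muscle myosin heavy chain gene. The remaining one, chr16:4979832-4980397 (69.3 and 66.8), was 1152 bp from 4930451G09Rik. The nearest WT peak was between 3537 bp (beside Tmem100) and 65760 bp (chromosome 16) away from these 6. At the other end, chr6:29083093-29083350, 9344 bp from the leptin gene Lep, stood at percentiles 0.474 and 0.019, and chr5:77224553-77224768 and chr5:144232143-144232390 ranked almost as low, with mean percentiles of 0.258 and 0.457.

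KO-only regions between genes lay a median of 14712 bp from the nearest gene (quartiles 5655 and 43191 bp). Regions between genes in all 4 lists lay closer, at a median of 11476 bp (quartiles 4672 and 28859 bp). Within 5 kb of a gene were 604 KO-only regions (22.5%), from 5 to 20 kb 951 (35.5%), from 20 to 100 kb 848 (31.7%) and beyond 100 kb 276 (10.3%), where the regions in all 4 lists had 5.52% beyond 100 kb. The farthest was chr15:70560692-70560899, 875089 bp from Gm23987, followed by chr14:81571307-81571617 at 812904 bp from Gm22891 and chr12:93006952-93007150 at 739451 bp from Gm23249. Just inside the 1 kb limit lay chr12:103426695-103427059 and chr2:168287901-168288118, each 1010 bp from a gene (Ddx24 and Gm14262), and just outside it KO-only regions at 998 bp (chr7:15880844-15881088) and 992 bp (chr10:129549407-129549686).

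What counts as between genes depends on the annotation. By RefSeq gene spans, 2161 of the 2679 (80.7%) were also over 1 kb from any gene end and outside genes, 383 lay inside a gene and 135 within 1 kb of a gene end. For regions in all 4 lists these shares were 79.0%, 14.1% and 6.84%, and the last 2 for KO-only regions were 14.3% and 5.04%. Of the 452 KO-only regions inside a RefSeq gene span, 287 were in a long noncoding RNA gene and 119 in a protein-coding gene. The nearest gene in the authors' table was often at or near 0 FPKM, though a listed 0 does not show that a gene, above all a small predicted one, was silent. It had a mean of at least 1 FPKM for 849 of the KO-only regions (31.7%) and was listed at 0 in every library for 40.3%. The shares were 37.7% and 32.8% for regions in all 4 lists.

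By the rule no WT peak overlapped these regions, so the distance to the nearest one is a description. The nearest WT peak was a median of 14577 bp from the edge of a KO-only region between genes (lowest 2 bp). A WT peak lay within 200 bp of 22 of them and within 1 kb of 180 (6.72%), and within 10 kb of 40.5%. The nearest region in all 4 lists was a median of 19164 bp away, centre to centre.

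On chromosome 11 the KO-only regions between genes were most numerous: 335 of the 2679 (12.5%), or 19.3% of that chromosome's regions between genes. The share was 15.6% on chromosome 16 and between 6.67% (Y) and 12.9% (chromosome 6) on the others. Set against regions in all 4 lists on the same chromosome, the order differed: there were 55.6 KO-only regions per 100 such regions on Y (5 against 9), 38.8 on chromosome 11, 35.8 on X and 29.0 on chromosome 16. On X, WT replicate 1 listed 1501 peaks and WT replicate 2 listed 966, where the TDG KO lists held 1156 and 1259. Other measurements differed between the genotypes on chromosome 11 as well. Chromosome 11 took 6.32% and 7.21% of the peaks of WT replicates 1 and 2 and 9.36% and 7.74% of those of TDG KO replicates 1 and 2, with TDG KO replicate 1 the highest. Of its 1028 tested genes 65.6% were called higher and 5.25% lower in TDG KO (median log2 change 0.37), beside 24.4% and 29.5% of all tested genes. Without chromosomes 11, X and Y, a restriction chosen after seeing the data, 2215 KO-only regions between genes were left. The number of copies of chromosome 11 in each line was not tested.

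**Figure D2:**
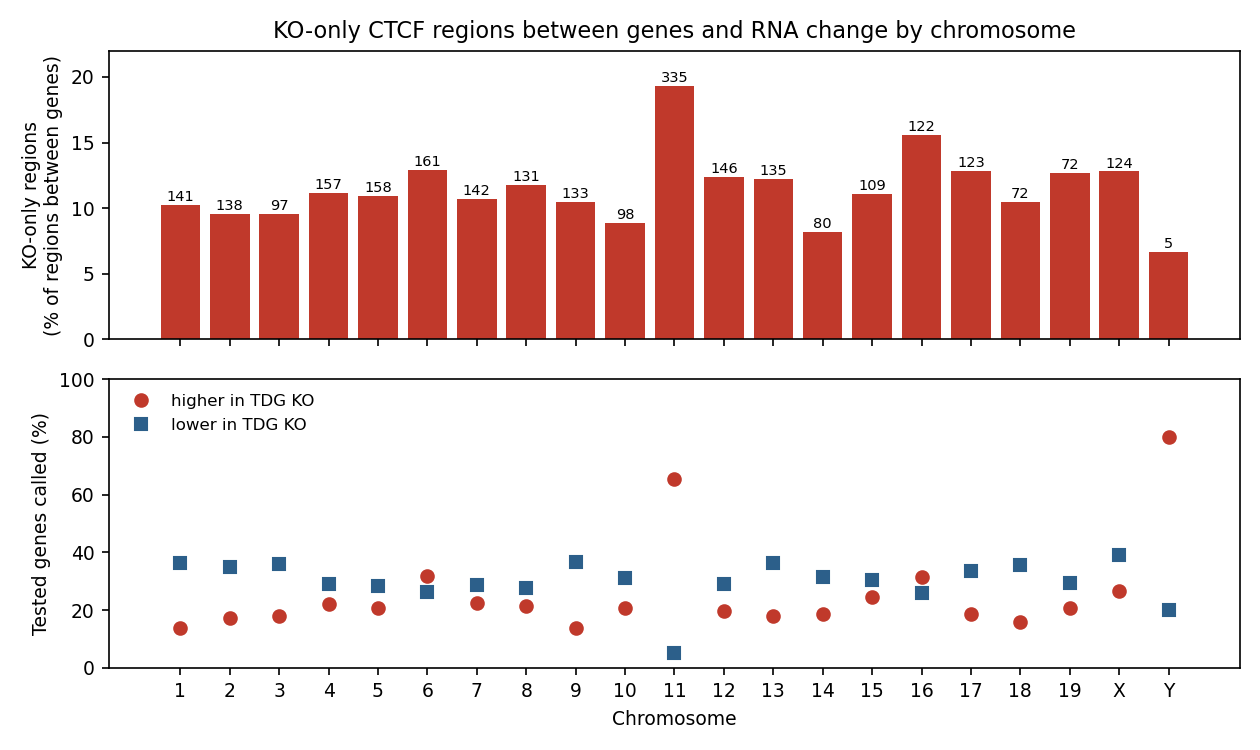
Upper panel, KO-only regions as a percentage of CTCF regions between genes on each chromosome, with their number above each bar; lower panel, the percentage of tested genes called higher (red circles) or lower (blue squares) in TDG KO. Chromosome 11 stands highest in the upper panel at 19.3% and among the autosomes also in genes called higher, at 65.6%.

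Some shorter segments showed the same pairing and others did not. From 0 to 10 Mb on chromosome 16, 30 of 86 regions between genes (34.9%) were KO-only, the lists held 66 and 64 WT peaks and 141 and 132 TDG KO peaks, and 37 of 39 tested genes were higher in TDG KO (median log2 change 0.70). From 120 to 130 Mb on chromosome 6, 37 of 174 were KO-only (21.3%), with 223 and 255 WT peaks and 413 and 355 TDG KO peaks, and 53 of 82 tested genes were higher (median log2 change 0.36). The pairing did not appear in each such segment: from 20 to 30 Mb on the X chromosome 21 of 40 were KO-only (52.5%, 20 and 22 WT peaks against 60 and 66), but of 17 tested genes 3 were higher and 7 lower. From 10 to 20 Mb on chromosome 12, 26 of 143 were KO-only (18.2%), and of 20 tested genes 1 was higher and 7 lower. On chromosome 7, from 30 to 40 Mb, 28 of 165 were KO-only (17.0%), with 21 of 70 tested genes higher and 21 lower. Among segments with at least 20 regions between genes, the share was highest from 60 to 70 Mb on X (17 of 27, 63.0%). Of 7 tested genes there, 3 were higher and 3 lower. Of the 17 KO-only regions of this segment, 13 form a single run at chrX:62532167-62555130, described below. Its share is therefore mostly that of a stretch of 22964 bp. The pairing was present from 30 to 40 Mb on X, with 15 of 54 KO-only (27.8%) and 16 of 33 tested genes higher, 8 lower.

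KO-only regions between genes came mostly singly. The nearest other one was a median of 193274 bp away, and 632 of 2679 (23.6%) had another within 50 kb. Chained at gaps of at most 50 kb, they formed 280 runs of 2 or more, of which 228 were pairs and 46 triplets, and 6 runs held 4 or more. The run with the most regions, on the X chromosome, had 13 (chrX:62532167-62555130); its 22964 bp were the shortest span of these 6.

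That run begins 5282 bp from the end of 1700019B21Rik, a gene named only by its clone. No WT peak lay within 50 kb of the run, and the nearest was 351765 bp from its first region. Percentiles ranged from 10.7 to 46.2 in TDG KO replicate 1 and from 20.5 to 49.1 in TDG KO replicate 2. The regions were regularly spaced: of the 12 steps from one centre to the next, 8 measured between 740 and 769 bp, and the other 4 ranged from 1494 to 5317 bp. Within 50 kb of the run lay 3 further KO-only regions in gene bodies and 2 at gene ends. 1700019B21Rik itself was at 0.266 and 0.520 FPKM in WT and at 17.1 and 21.2 FPKM in TDG KO (log2 change 3.85, SE 0.134, limma, adjusted p = 7.23e-06). Whether the run lies in repeated sequence was not tested.

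**Figure D3:**
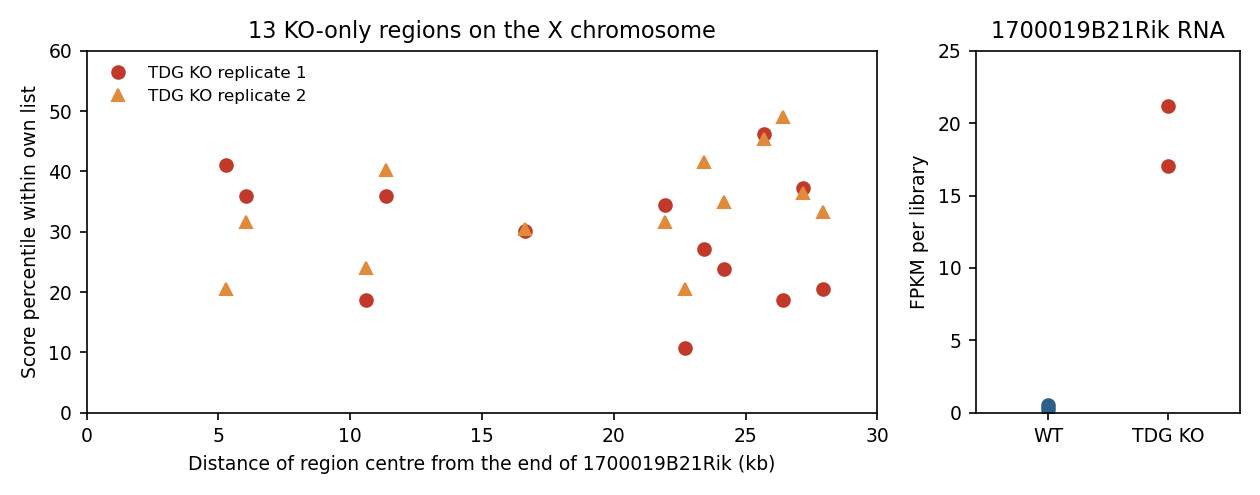
Left, the 13 regions of the X chromosome run by distance from the end of 1700019B21Rik (x, kb) and score percentile within each TDG KO list (y; circles replicate 1, triangles replicate 2); right, FPKM of 1700019B21Rik per library. The regions fall in groups of closely spaced peaks between 5282 and 27950 bp from the gene, and the TDG KO libraries are at 17.1 and 21.2 FPKM with both WT libraries under 1.

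The other 5 runs of 4 or more held fewer regions over longer stretches. On chromosome 17, 6 regions spread over 101035 bp (chr17:35496320-35597354). Of them 2 were 8304 and 9445 bp from Pou5f1, the core pluripotency factor. Psors1c2 was the nearest tested gene of 3, at 10752 to 57661 bp. The remaining region had Vars2 at 54595 bp, which rose from 9.80 and 9.26 to 16.5 and 14.9 FPKM (log2 change 0.67, adjusted p = 0.000665 in limma). Pou5f1 was at 1509 and 1572 FPKM in WT and at 996 and 1094 FPKM in TDG KO (log2 change -0.56, adjusted p = 0.00189 in limma), and Psors1c2 rose from 2.31 and 2.75 to 9.97 and 11.7 FPKM (log2 change 1.74, adjusted p = 5.68e-05). On chromosome 6, 5 regions over 57186 bp (chr6:108674182-108731367) lay between Bhlhe40, a repressor of the circadian clock, and Arl8b, a lysosomal GTPase. Bhlhe40 rose from 14.4 and 11.8 to 31.7 and 28.3 FPKM (log2 change 1.14, adjusted p = 0.000254) and Arl8b from 30.5 and 34.4 to 49.9 and 46.9 FPKM (log2 change 0.56, adjusted p = 0.00128). On chromosome 8, 5 regions over 56889 bp (chr8:117636330-117693218) started 1446 bp from Plcg2, a phospholipase of immune signalling, which was at 6.52 and 6.81 FPKM in WT and at 7.87 and 7.57 FPKM in TDG KO and was not called (log2 change 0.19, adjusted p = 0.0719). On chromosome 11, 4 of the 5 regions at chr11:3571395-3603042 had as nearest tested gene Morc2a, a chromatin ATPase gene, which rose from 28.3 and 27.0 to 34.6 and 32.5 FPKM (log2 change 0.27, adjusted p = 0.0127). On chromosome 7, the 4 regions at chr7:111805595-111873197 lay closest to the predicted genes Gm25787 and Gm23345, and their nearest tested gene was Galnt18, a glycosyltransferase gene between 25711 and 93109 bp away. Galnt18 fell from 3.26 and 1.91 to 1.25 and 1.36 FPKM (log2 change -0.61, adjusted p = 0.0256). These genes were picked for their runs and not by the rule for naming genes.

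To ask whether genes near these regions differed in RNA, a measure the choice of regions did not use, each region was joined to the nearest gene with a mean of at least 1 FPKM, if within 100 kb. This gave 1335 genes for 1599 of the 2679 regions, and 204 of the genes were nearest to 2 or more regions. Of the 1335, 434 (32.5%) were called higher in TDG KO and 346 (25.9%) lower, beside 24.4% and 29.5% of all tested genes, and their median log2 change was 0.03 beside -0.04. Genes nearest to regions in all 4 lists stood closer to the background, with 25.8% higher and 28.9% lower among 4851. The authors' deposited table marks 472 of the 1335 as changed, 304 (22.8%) upward and 168 (12.6%) downward in TDG KO, beside 14.9% and 14% of all tested genes. When WT replicate 2 was left out, 226 (16.9%) were lower, beside 20.4% of all tested genes in that fit.

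The share of higher genes also exceeded the background when chromosome 11 was set aside. On chromosome 11 itself, 137 of 194 nearest genes (70.6%) were higher, beside 65.6% of all tested genes of the chromosome and 68.3% of 366 genes nearest to regions in all 4 lists. Outside chromosomes 11, X and Y, 25.6% of 1094 nearest genes were higher and 29.3% lower, beside 20.3% and 31.5% of all 10556 tested genes there and 22.1% and 30.4% of 4331 genes nearest to regions in all 4 lists. On the X chromosome 17 of 47 nearest genes (36.2%) were higher and 15 lower, beside 26.5% and 39.0% of its 446 tested genes. The median log2 change of the 1094 was -0.04, beside -0.07 for the 10556. With log2 values centred on each chromosome's median, 27.3% of the 1335 were higher and 23.5% lower, beside 22.2% and 26.6% of all tested genes treated in the same way. This comparison and the one outside chromosomes 11, X and Y both keep the segments of chromosomes 6 and 16 described above. Shares without those segments were not computed. Within 5 kb of a region and over all chromosomes, chromosome 11 among them, 36.2% of 260 genes were higher and 22.7% lower. Shares within 5 kb were not computed without chromosome 11. For 1567 genes within 5 kb of regions in all 4 lists the shares were 27.4% and 26.9%. These shares carry no test of their own, since the genes were reached through regions chosen on the same genotype contrast.

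**Figure D4:**
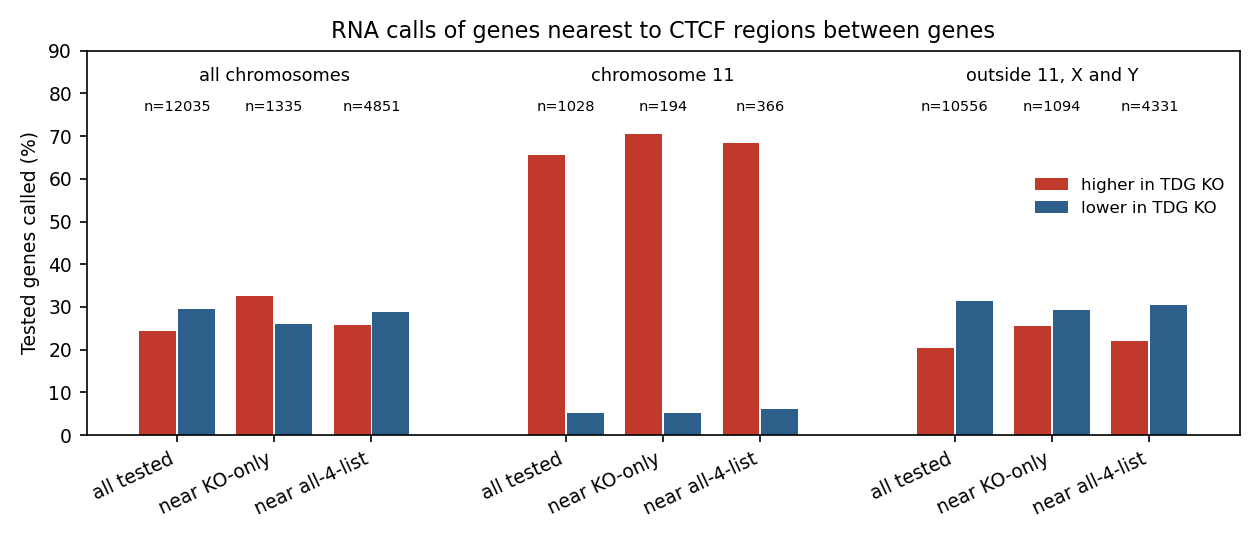
Percentage of tested genes called higher (red) or lower (blue) in TDG KO, for all tested genes, genes nearest to KO-only regions between genes, and genes nearest to regions between genes with a peak in all 4 lists, over all chromosomes, on chromosome 11, and outside chromosomes 11, X and Y. Near KO-only regions 32.5% were higher over all chromosomes, 70.6% on chromosome 11 and 25.6% outside chromosomes 11, X and Y.

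Of the 8 nearest genes with a mean of at least 5 FPKM that rose furthest, 4 lie on the X chromosome. That chromosome held 47 of the 1335 nearest genes. The 4 are 1700019B21Rik, beside the run of 13, and Rhox5, Rhox9 and Rhox13 of the Rhox cluster described below. These Rhox genes lie together in the segment from 30 to 40 Mb on X described above. The share of X among the furthest-rising of all tested genes was not computed. In WT, 1700019B21Rik, Rhox9, Rhox13, Dppa3 and Tmem40 were below 5 FPKM and passed the filter of 5 FPKM through their TDG KO values. The same holds for Ngfr, named below. Slc38a5 and Vegfc, which fell, had TDG KO means of 2.27 and 4.92 FPKM and passed it through their WT values. Over the genes named here for the size of their change, the standard error of the log2 change lay between 0.0655 and 0.134, except in Malat1. Dppa3, a maternal factor that protects DNA methylation in the early embryo, was at 1.83 and 1.67 FPKM in WT and at 57.8 and 61.9 FPKM in TDG KO (log2 change 4.47, adjusted p = 7.14e-07). Of the KO-only regions, 3 had Dppa3 as their nearest tested gene, at 2638, 6611 and 9617 bp, and the closest, chr6:122632717-122633104, was at percentiles 38.8 and 12.3 of the TDG KO lists, with a WT peak 396 bp away. Dppa3 lies in the chromosome 6 segment described above.

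Rhox5, a homeobox gene of the reproductive X-linked Rhox cluster, went from 23.1 and 27.6 to 513 and 541 FPKM (log2 change 4.33, adjusted p = 1.91e-06), with a region 6997 bp away at chrX:37815736-37816011 (percentiles 33.0 and 41.3). Rhox9 of the same cluster went from 1.89 and 2.45 FPKM to 11.4 FPKM in each TDG KO library (log2 change 1.97, adjusted p = 3.03e-05) and had regions at 14748 and 76462 bp. Rhox13 rose from 2.01 ± 0.280 to 14.0 ± 2.33 FPKM (mean ± SD, n = 2; log2 change 2.31, adjusted p = 3.53e-05), 29368 bp from its region. Reads of near-identical Rhox copies may be shared.

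Tmem40, a membrane protein gene, was near 1 FPKM in both WT libraries (1.09 and 1.02) and at 22.2 and 23.5 FPKM in TDG KO (log2 change 3.54, adjusted p = 2.21e-06), 10744 bp from its region. Aim2, a sensor of cytosolic DNA, went from 7.95 and 7.20 to 44.1 and 42.1 FPKM (log2 change 2.36, adjusted p = 4.37e-06), with a region 31699 bp away. Tfpi, an inhibitor of blood coagulation, went from 10.6 and 11.3 to 42.9 and 44.9 FPKM (log2 change 1.91, adjusted p = 7.23e-06), with a region at 5651 bp. Within 5 kb, Hip1, an endocytic adaptor, rose from 6.24 and 6.03 FPKM to 15.9 FPKM in each TDG KO library (log2 change 1.25, adjusted p = 3.6e-05), and the neurotrophin receptor gene Ngfr, on chromosome 11, from 2.63 and 2.91 to 7.60 and 7.90 FPKM (log2 change 1.22, adjusted p = 9.35e-05).

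**Figure D5:**
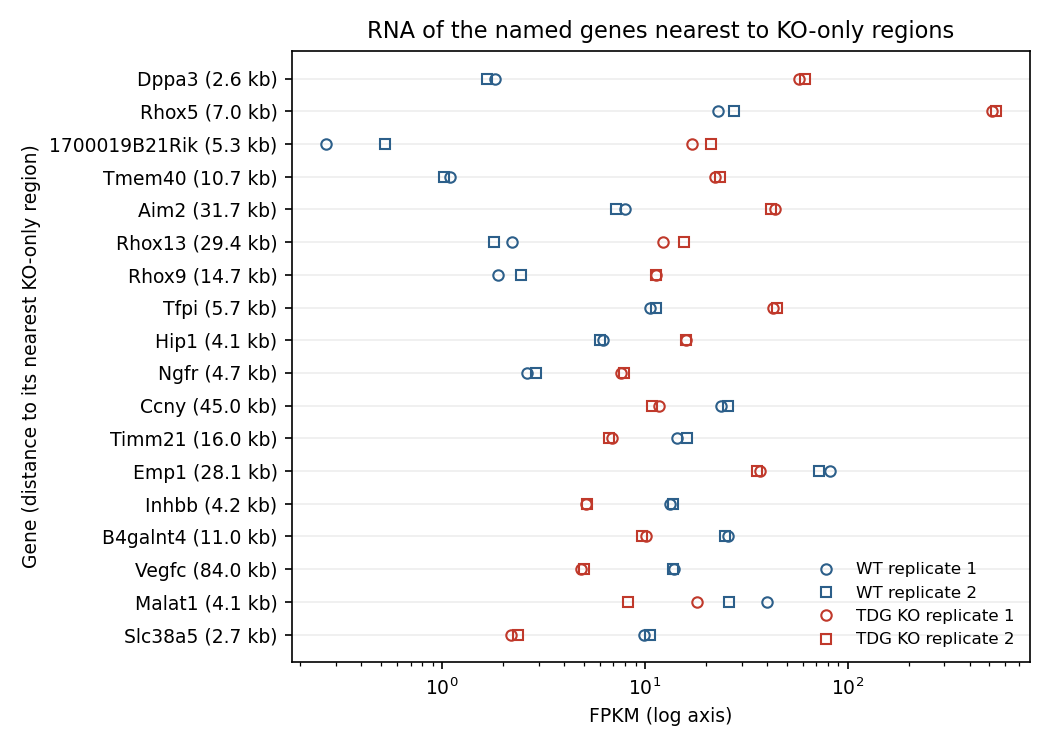
FPKM (x, log axis) in each of the 4 RNA libraries for the named genes nearest to KO-only regions between genes, with the distance to the nearest region in parentheses; blue is WT, red is TDG KO, circles replicate 1 and squares replicate 2. These genes were named only where both TDG KO libraries lay on one side of both WT libraries. The gap was narrowest in Malat1.

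Among nearest genes that fell, Slc38a5, an X-linked amino acid transporter, went furthest, from 9.96 and 10.6 to 2.18 and 2.35 FPKM (log2 change -1.79, adjusted p = 1.91e-05). Its regions lay at 2742 and 73537 bp, the closer at chrX:8282820-8283022. Inhbb, a subunit of activin and inhibin, fell from 13.3 and 13.8 FPKM to 5.15 and 5.16 FPKM (log2 change -1.24, adjusted p = 4.17e-05). It was nearest to 3 regions, at 4238, 13406 and 21908 bp, and the last of these holds the Gm33490 stretch printed above with a near match to the motif. All 3 were low in their lists, at percentiles of 3.77 to 17.2.

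Vegfc, a growth factor of lymphatic vessels, fell from 14.0 and 13.7 to 4.83 and 5.01 FPKM (log2 change -1.33, adjusted p = 3.28e-05) at 83960 bp from its region. B4galnt4, a glycosyltransferase gene, fell from 25.7 and 24.9 to 10.2 and 9.73 FPKM (log2 change -1.26, adjusted p = 2.91e-05) at 11028 bp, where a WT peak lay 985 bp from the region. Emp1, Timm21 and Ccny had log2 changes of -1.07, -1.07 and -1.06 (adjusted p = 0.000105, 0.000121 and 0.000102 in limma), with regions at 28143, 16025 and 44965 bp. Malat1, an abundant nuclear noncoding RNA, spread widely, at 40.2 and 26.1 FPKM in WT and 18.1 and 8.31 FPKM in TDG KO (log2 change -1.33, SE 0.332, adjusted p = 0.0144). It was no longer called by limma when WT replicate 1 was left out (adjusted p = 0.0667), when TDG KO replicate 2 was (0.0806) or when genes of low FPKM were kept (0.093).

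Slc38a4 was nearest to 5 regions, among them the best-ranked one, and rose from 48.4 and 50.3 to 76.5 and 69.5 FPKM (log2 change 0.55, SE 0.069, adjusted p = 0.000863). Those regions lay 13304, 42832, 51939, 70013 and 91688 bp from it. Myh10, beside one of the chromosome 11 regions, rose from 22.6 and 21.6 to 44.4 and 47.0 FPKM (log2 change 1.01, adjusted p = 6.7e-05). Of the genes at the printed motif stretches, Slc15a1, a peptide transporter 2501 bp from the Gm33299 region, rose from 2.28 and 2.25 to 4.13 and 3.40 FPKM (log2 change 0.54, adjusted p = 0.00532). Dpp8, a peptidase gene 1016 bp from the Gm39362 region, was at 6.41 and 6.58 FPKM in WT and at 5.91 and 5.18 FPKM in TDG KO and was not called (log2 change -0.20, adjusted p = 0.0932). Meis1, 2176 bp from the 8430419K02Rik region, did not reach a mean of 1 FPKM and was not tested. RNA near the Gm46796 region is not given. Slc38a4, Myh10, Slc15a1 and Dpp8 were named for their regions after their values were seen.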

How the data were processed

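For each CTCF library the authors deposited a peak list whose score column has no stated meaning. It served here to rank peaks inside a list and for nothing else; the caller's control and cutoff are not stated. Tools named in the submitters' processing notes are Bowtie2 2.2.9, MACS2 2.2.1, deepTools, TopHat2 2.1.1, Cufflinks 2.2.1 and Cuffdiff with mm10, without roles. RNA values are the FPKM the authors deposited for each library, per the file headers. Their depth relative to WT replicate 1, read from steps between low values, was 0.858 (WT replicate 2), 0.992 and 0.929 (TDG KO); absolute depth is unknown. The authors' deposited table also holds log2 folds (WT over TDG KO), test scores, p-values and q-values; only its significance mark and sign were used.

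Peaks were merged, classed and placed with Python 3.11.15 and pandas 2.3.3, using the locus column as gene spans. Coordinates are mm10, 1-based. For RNA, log2(FPKM + 1) of 12035 genes whose mean reached 1 FPKM went into limma (3.58.1, trend option, R 4.3.3), 2-sided, and Benjamini-Hochberg adjusted values under 0.05 over all of these genes were called. Changes of low genes are understated on this scale. Both procedures were tested on simulated data. With 2 lists against 2, an exact permutation test cannot go below p = 0.33, so peak counts carry no p-value. Strand use is not given, so overlapping genes and near-identical copies are uncertain. Named genes were Tdg, the 8 highest and 8 lowest called nearest genes within 100 kb and the 3 highest and 3 lowest within 5 kb (mean of at least 5 FPKM, groups not overlapping), and named regions the 6 best and 3 lowest ranked, the 3 farthest from genes, the 2 nearest the limit and the densest run. Promoter windows are from RefSeq (GRCm38.p6). The regions and lists were chosen with earlier results of these data known. RNA polymerase II, IgG and input libraries were not used here.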

Additional observations from a re-analysis of the deposited data

How the results depend on the processing

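The count of 2679 regions was within 1.5 times of its value under an overlap of at least 50 bp, gaps of up to 200 bp merged, the upper 75% of each list, 5 kb from every gene, RefSeq gene spans and without chromosomes 11, X and Y; with the 37099 best-scored peaks of each list, which shortens the TDG KO lists and leaves the WT lists nearly whole, it was 605. Leaving out one list gave 3824 to 4277 regions. Of the nearest genes, 434 were higher and 346 lower. Leaving out one RNA library, which assumes that the lone sample varies like the others, gave 353 to 373 higher and 226 to 249 lower of 1335, beside 2257 to 2533 higher and 2459 to 2780 lower of all 12035 tested genes. With no filter on FPKM 176 (9.99%) were lower, beside 12.0% of all genes tested so, and the cause was not tested. Fewer genes entered within 20 kb (273 higher, 177 lower) and without chromosomes 11, X and Y (280 higher), an alternative chosen after seeing the data. Same-numbered RNA libraries did not deviate together (r = -0.016 over genes). With 2 libraries per group, this cannot show whether they were made as pairs. With the replicate block 443 were higher and 344 lower. Over all tested genes, 45.3% of calls were higher, and 50.5% with upper-quartile scaling. For 19 named genes, 187 of 190 values under the 10 RNA alternatives kept direction and call; the other 3 were of Malat1. Peak depth is unknown, so an absent WT peak is a peak not listed, not shown absence of binding.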
